A study of Macaca fascicularis with 36 samples.

Results

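ENSMFAG00000042945 is an abundant transcript of the frontal cortex of the cynomolgus monkey (Macaca fascicularis), and it is 1 of 28623 genes counted here in 36 bulk RNA-seq libraries. It was chosen by its identifier, after earlier results of these data had shown a small p for Para09 at 200 mg/kg against anti-gD. Its own levels and fold changes between the 3 groups are therefore given as a description with no test, and tests are kept to differences between libraries of an animal, to library properties and to other genes. The study asked which transcripts of the brain respond to an agonist antibody against TREM2.

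Each group held 4 animals with 3 libraries each. The controls received 200 mg/kg of the isotype antibody anti-gD, and the other groups received Para09, an antibody that activates human TREM2, at 50 or at 200 mg/kg. All 12 animals had an intrathecal antibody injection per the labels, which do not say how a dose per kg applies to that route, and the cortex was taken on day 2. The sources used here give neither the age and sex of the animals nor the meaning of the letters A, B and C, by which the libraries of each animal are told apart. Their SAM numbers form 2 separate runs of numbers. The first run held 16 libraries, namely letter B of every animal and letters A and C of animals 1504 (anti-gD) and 5501 (Para09 200 mg/kg). The second run held the other 20 libraries.

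TREM2 is a surface receptor of microglia, which are the macrophages of brain tissue. It binds lipids and lipoproteins, signals through the adaptor TYROBP, and is known for promoting the survival, proliferation and phagocytic activity of these cells. ENSMFAG00000042945 carries only an Ensembl-type identifier. The files do not pair identifiers with names, and a RefSeq table of 40596 genes of this species matched 0 of the 28623 identifiers, so no name, role, position or sequence is given for it, and markers of microglia and of other cell types could not be read. The files give it an exonic width of 4961 bases, longer than 87.7% of the genes listed, whose median width is 1428 bases.

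Libraries held 15.1 to 37.0 M counts (M, 1000000 counts), and 54.7 to 80.3 M after the 3 libraries of an animal were summed. Between 17974 and 19677 genes had a count, apart from library 5501B, which had 15779. ENSMFAG00000042945 itself was counted 14152 to 81677 times per library. Counting error alone amounts to 0.350% to 0.841% of its level, and the interval this gives covers counting error only.

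In the Para09 animals at 200 mg/kg, ENSMFAG00000042945 stood at 2687, 2817, 2895 and 2329 CPM (counts per 1000000 counts of the library, here over the 3 libraries of animals 5501, 5502, 5503 and 5504). In the anti-gD animals 1501, 1502, 1503 and 1504 it stood at 1401, 958, 1261 and 1206 CPM. All 4 animals at 200 mg/kg lay above all 4 given anti-gD. Of 17360 genes, 236 (1.36%) had that arrangement, and it belongs to the contrast the gene was chosen on.

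At 50 mg/kg the animals 4501, 4502, 4503 and 4504 stood at 1779, 1034, 1767 and 1802 CPM. Of these, 3 lay close together and above every anti-gD animal, while animal 4502 lay inside the anti-gD range. The 4 animals at 200 mg/kg lay above all 8 others, as was the case for 42 of 17360 genes (0.242%). That arrangement includes the contrast the gene was chosen on. From the low end, the order of the group means was 1207 CPM ± 185 with anti-gD, 1596 CPM ± 374 with Para09 at 50 mg/kg and 2682 CPM ± 250 with Para09 at 200 mg/kg (SD, n = 4 animals). The first pair of neighbours in this order overlapped between animals, and the second did not, with a gap of 527 CPM.

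**Figure D1:**
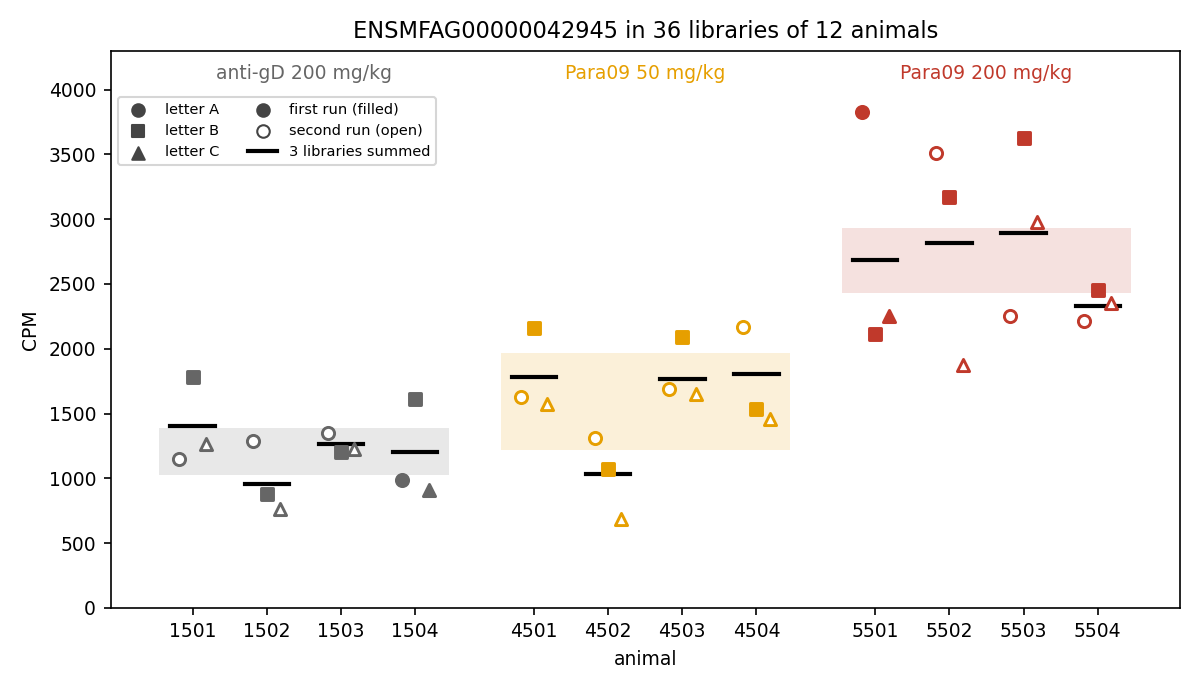
Level of ENSMFAG00000042945 in CPM for each library (points; shape gives the letter, filled points the first run of SAM numbers and open points the second), with the 3 libraries of each animal summed (black bars) and the group mean ± SD over 4 animals (shaded). All 12 libraries at 200 mg/kg lie above 1878 CPM or at it, all 12 anti-gD libraries lie at 1780 CPM or below, and animal 4502 sits apart from the other animals at 50 mg/kg.

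Library by library, the level ran from 1878 through a median of 2400 to 3831 CPM in the 12 libraries at 200 mg/kg, and from 761 through 1215 to 1780 CPM in the 12 anti-gD libraries. The lowest library at 200 mg/kg, 5502C, was 98.4 CPM above the highest anti-gD library, 1501B. Such a full separation of 12 from 12 libraries was found for 4 of 17360 genes (0.023%), of which 1, ENSMFAG00000042945, had a mean CPM of at least 100. This separation belongs to the contrast the gene was chosen on, so it is no separate support. The 12 libraries of a group are 3 from each of 4 animals and are not 12 replicates. In the 12 libraries at 50 mg/kg the level ran from 682 through 1601 to 2166 CPM. Of those libraries 8 fell inside the anti-gD range, 3 above it and 1, 4502C, below it. At 200 mg/kg 10 of the 12 libraries exceeded every library at 50 mg/kg, and the other two were 5502C and 5501B.

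The fitted log2 fold change (edgeR on animal sums) was 1.16 (SE 0.17) for 200 mg/kg against anti-gD, 0.42 (SE 0.17) for 50 mg/kg against anti-gD and 0.74 (SE 0.17) for 200 against 50 mg/kg. The 3 values share animals and are not independent of each other. Over all 17360 genes tested, the fold change was at least as far from 0 for 203 other genes at 200 mg/kg against anti-gD, for 2274 at 50 mg/kg against anti-gD and for 690 at 200 against 50 mg/kg. Among the 2212 genes with an average of at least 100 CPM in that fit, the number was 0 others, 57 others and 1 other in the same order of comparisons. For 200 mg/kg against anti-gD, the contrast the gene was chosen on, the next of them stood close by, at 1.13 in size. Without animal 4502 the log2 fold change was 0.58 (SE 0.13) for 50 mg/kg against anti-gD and 0.57 (SE 0.13) for 200 against 50 mg/kg.

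The same order of groups was seen within each run and each letter. These are splits of the same libraries and animals that the choice of the gene rested on. They are a description and no separate support. In the first run the mean was 1230 CPM ± 383 with anti-gD (n = 6 libraries), 1715 CPM ± 513 at 50 mg/kg (n = 4) and 2907 CPM ± 735 at 200 mg/kg (SD, n = 6). In the second run it was 1173 CPM ± 213 (n = 6), 1520 CPM ± 418 (n = 8) and 2532 CPM ± 599 (n = 6) in the same order of groups. For letter A, the 4 libraries at 200 mg/kg ran from 2216 to 3831 CPM, against 987 to 1347 CPM with anti-gD. For letter B they ran from 2113 to 3625 CPM, against 878 to 1780 CPM, and for letter C from 1878 to 2980 CPM, against 761 to 1267 CPM. Between 200 and 50 mg/kg, letters A and C did not overlap, and letter B did, through library 5501B at 2113 CPM and library 4501B at 2163 CPM. With anti-gD and at 200 mg/kg the runs held equal numbers of libraries, so the share of each run was the same in both groups.

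Set against other genes, the transcript ranked 30th to 104th by CPM in the anti-gD libraries, 26th to 136th at 50 mg/kg and 15th to 27th at 200 mg/kg. Summed per animal, it ranked 18th to 23rd by CPM at 200 mg/kg and 43rd to 81st with anti-gD, so it was among the 100 most abundant genes of every control animal. Counted per length it ranked lower, because its exonic width is large. On that scale it ranked 43rd to 55th in animals at 200 mg/kg and 99th to 176th in anti-gD animals. The deposited RPKM (reads per kilobase of exon and 1000000 reads) ran from 224 through a median of 281 to 441 at 200 mg/kg, and from 82.8 through 139.6 to 212 with anti-gD.

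Libraries of the same animal differed in this transcript by far more than counting error. The coefficient of variation between the 3 libraries of an animal had a median of 23.6% over the 12 animals. It was lowest in animals 5504 and 1503, at 5.02% and 6.10%, and highest in animal 5501, at 34.9%. The highest library of an animal exceeded its lowest by 1.11-fold in animal 5504 and by 1.93-fold in animal 4502, whose libraries A, B and C stood at 1314, 1069 and 682 CPM. In animal 5502 they stood at 3512, 3169 and 1878 CPM, and in animal 5501 at 3831, 2113 and 2254 CPM.

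On the log2 CPM scale the SD between libraries of an animal, with the run removed, was 0.35, above that of 90.0% of 2209 other genes that averaged 100 CPM or more, whose median was 0.20. The SD between animals of a group was 0.29, above that of 84.3% of those genes, with a median of 0.18. That value rested on animal 4502: without it the SD was 0.18, above that of 46.5% of the genes, whose median was then also 0.18. Of the variation of ENSMFAG00000042945 over the 36 libraries, 62.3% lay between groups, 15.9% between animals of a group and 21.8% between libraries of an animal. The share between groups is the pattern the gene was chosen for. For the 2210 genes of that abundance the median shares were 4.59%, 39.4% and 52.9%. Unlike the SDs, these shares were taken without removing the run, so a gene's difference between runs is part of them.

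The run of SAM numbers and the letter were not used to choose the gene, and both were tested within animals. In the 10 animals with libraries in both runs, the mean of letters A and C (second run) minus letter B (first run) was -0.12 ± 0.27 on the log2 CPM scale (SD, n = 10 animals), with 7 animals below 0 and 3 above. An exact two-sided sign-flip permutation test gave p = 0.18. In the edgeR quasi-likelihood test with animal as a block the log2 difference was -0.19 (SE 0.12, 95% interval -0.43 to 0.06, adjusted p = 0.18). The transcript was thus not among the genes that passed this test, although 27.5% of 16715 genes were called higher and 33.3% lower in the second run. This edgeR test was fitted on single libraries, so letters A and C of an animal count separately in it. In these animals the run cannot be told apart from the letter, since B was in one run and A and C in the other.

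This difference between runs was -0.01 on average in 3 anti-gD animals, -0.12 in 4 animals at 50 mg/kg and -0.24 in 3 animals at 200 mg/kg. The edgeR test of group by run gave an adjusted p of 0.944 for the transcript. It was fitted on single libraries with animal as a block, so letters A and C of an animal count separately in it. That test called 0 of 16937 genes (0%), with 719 genes at an unadjusted p under 0.05 and 0 called by DESeq2.

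Letter A exceeded letter C in 6 of the 10 animals, with a mean log2 difference of 0.28 ± 0.50 (SD, n = 10 animals; exact two-sided sign-flip permutation test, p = 0.109). The edgeR test with animal as a block gave 0.29 (SE 0.14, 95% interval -0.02 to 0.59, unadjusted p = 0.061, adjusted p = 0.566). It called 1 of 16841 genes (0.00594%), with 1539 at an unadjusted p under 0.05 and 12 called by DESeq2. For the transcript the unadjusted p was 0.041 with DESeq2 (adjusted p = 0.607) and 0.049 with limma voom (adjusted p = 0.568). The differences fell unevenly over the animals. In animals 1502, 4502 and 5502, which belong to 3 different groups, letter A was higher by 0.88, 0.91 and 0.92, and in animal 4504 by 0.56, while the other 6 animals lay between -0.43 and 0.22. Over all 12 animals, on the same log2 scale with TMM factors, letter C was the highest library in 1 animal and the lowest in 6, letter A the highest in 6 and the lowest in 4, and letter B the highest in 5 and the lowest in 2. By plain CPM letter C was the highest in 0 and the lowest in 7.

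**Figure D2:**
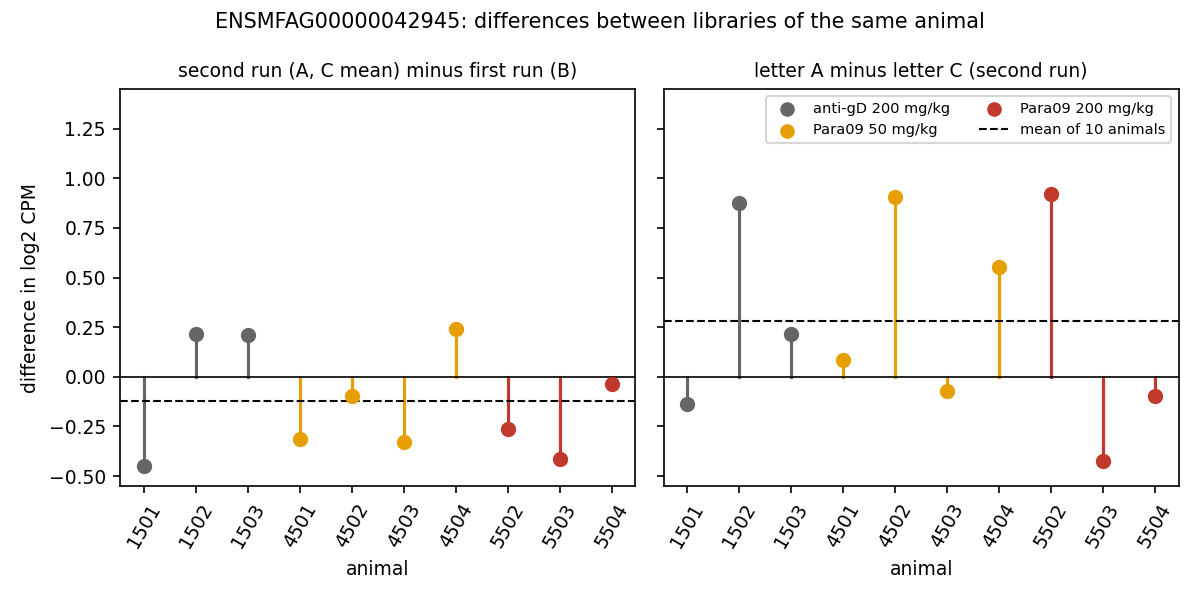
Differences in log2 CPM of ENSMFAG00000042945 between libraries of the same animal, for the 10 animals with both runs (left, mean of letters A and C minus letter B; right, letter A minus letter C); the dashed line is the mean of the 10 animals. The left values spread around a mean of -0.12, and on the right 4 animals from 3 groups stand at 0.56 or higher.

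Depth and composition were compared with the level in the letter B libraries, the one kind that every animal has in the same run, after the group means were removed. Across 12 animals the log2 CPM of the transcript correlated with the log2 total count at r = -0.02 (rho = 0.01), with the number of genes detected at r = 0.36 (rho = 0.19) and with the share of counts in the 100 highest genes at r = 0.06 (rho = 0.10). Exact permutation within groups gave p = 0.962, 0.173 and 0.889 for the 3 values of r and p = 0.977, 0.526 and 0.781 for the 3 values of rho. The adjusted p over the 3 relations ran from 0.518 to 0.962 for r and was 0.977 for each rho. Without the 2 animals farthest from the median of the property, r was -0.26, 0.05 and 0.41. None of these relations passed the test.

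Genes whose levels follow ENSMFAG00000042945 were sought across the 12 animals within groups. Each gene's animal value came from a fit of animal and run on log2 CPM over all 36 libraries, and the group means were then removed, so the difference between groups does not enter. Pearson's r describes the likeness over 12 animals, whose deviations keep 9 degrees of freedom once the group means are removed. It is given with no p because the genes named are the most extreme of all that were compared. All values of a library also share its depth and composition. Of 14626 other genes that averaged 1 CPM or more, 28 (0.191%) had an r of 0.8 or higher and 14 (0.0957%) an r of -0.8 or lower, and the middle 90% lay between -0.46 and 0.47.

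Among the 10029 other genes that averaged 10 CPM or more, the highest r belonged to ENSMFAG00000031686, at 0.89 (rho = 0.87). Its level in anti-gD animals 1501 to 1504 was 14.8, 12.9, 14.5 and 13.4 CPM. In animals 4501 to 4504, at 50 mg/kg, it was 16.2, 8.97, 14.7 and 14.8 CPM, and in animals 5501 to 5504, at 200 mg/kg, it was 15.8, 16.3, 17.4 and 17.1 CPM. Animal 4502 was the lowest of all 12 for this gene, and without that animal r was 0.64.

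The next highest was ENSMFAG00000032778, at r = 0.89 (rho = 0.80). It stood at 97.4, 78.1, 86.0 and 85.6 CPM in animals 1501 to 1504, at 74.9, 33.5, 70.1 and 84.7 CPM in animals 4501 to 4504 and at 81.4, 78.1, 76.2 and 63.4 CPM in animals 5501 to 5504. Here too animal 4502 was the lowest, and without it r was 0.61.

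The lowest r belonged to ENSMFAG00000001365, at -0.86 (rho = -0.73). Its levels varied little, from 47.6 to 52.8 CPM in anti-gD animals, from 49.5 to 58.0 CPM at 50 mg/kg and from 50.8 to 51.9 CPM at 200 mg/kg. The highest of the 12 was again animal 4502, and without it r was -0.64. ENSMFAG00000000877 followed at r = -0.855 (rho = -0.78), with 30.5, 43.9, 31.1 and 41.8 CPM in animals 1501 to 1504, 37.4, 44.4, 28.7 and 37.7 CPM in animals 4501 to 4504 and 41.3, 31.97, 38.3 and 40.1 CPM in animals 5501 to 5504. With each animal left out in turn its r stayed between -0.92 and -0.83.

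**Figure D3:**
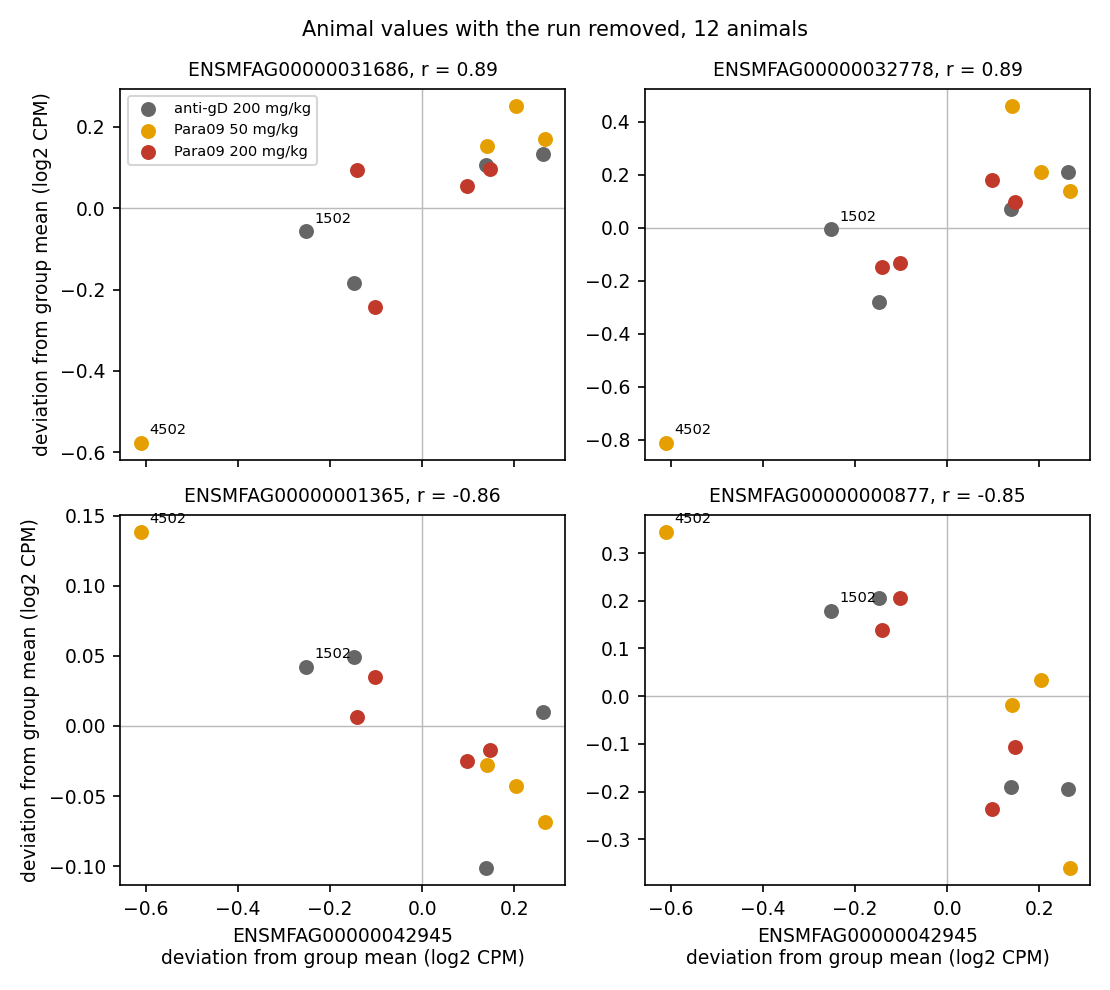
Deviation from the group mean (log2 CPM, run removed) of the 4 named genes against that of ENSMFAG00000042945, 1 point per animal. Animal 4502 lies at the far left of each panel, 0.61 below its group mean on the x axis.

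The group differences of these 4 genes were not used to choose them. The edgeR log2 fold change for 200 mg/kg against anti-gD was 0.26 (SE 0.16) for ENSMFAG00000031686, -0.21 (SE 0.21) for ENSMFAG00000032778, 0.01 (SE 0.08) for ENSMFAG00000001365 and 0.04 (SE 0.16) for ENSMFAG00000000877, with an adjusted p of 1.00 for each. For 50 mg/kg against anti-gD the values were -0.01 (SE 0.16), -0.39 (SE 0.21), 0.08 (SE 0.08) and 0.02 (SE 0.16) in the same order of genes, with adjusted p from 0.876 to 0.993. None of the 4 passed the test at either dose. The edgeR test called 0 of 17360 genes (0%) in either comparison, with 691 and 996 genes at an unadjusted p under 0.05, and DESeq2 called 14 and 9.

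The likeness was then read in separate libraries of the same animals. The 20 genes with the highest r in the letter B libraries had a median r of 0.84 there and of 0.16 in the second-run libraries (10 animals, range -0.70 to 0.68). In those other libraries 15 of the 20 had the same sign, where 51.6% of all 10025 genes had a positive r. The 20 with the lowest r had a median of -0.88 in letter B and of -0.10 in the second run, with 12 of 20 of the same sign, against 48.4% of all genes. Chosen the other way round, the 20 highest in the second run had a median r of 0.87 there and of -0.01 in letter B, with 10 of 20 of the same sign, against 47.8% of all genes. The 20 lowest in the second run had a median of -0.88 there and of 0.12 in letter B, so the sign of the median turned, with 8 of 20 of the same sign, against 52.2% of all genes. Over 14610 genes, which are not independent of each other, the r of the 2 sets of libraries correlated at 0.02. For the 4 named genes, r was 0.50, 0.58, -0.59 and -0.95 in letter B and 0.89, 0.88, -0.50 and -0.46 in the second run, and both sets of libraries had gone into choosing them.

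**Figure D4:**
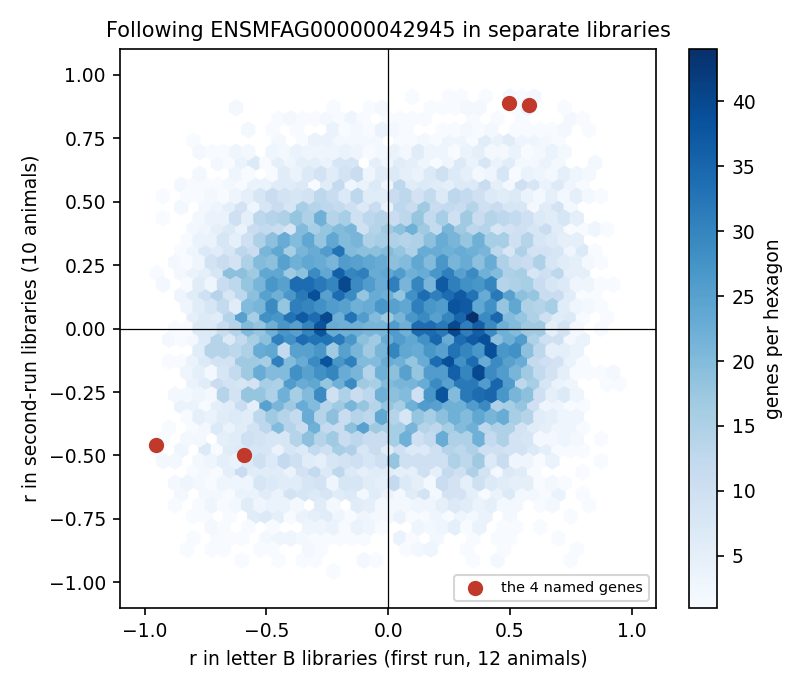
Pearson r with ENSMFAG00000042945 within groups for each gene averaging 1 CPM or more, in letter B libraries (12 animals, x axis) and in second-run libraries (10 animals, y axis), with the 4 named genes in red; both axes are correlations and the shade counts genes. The cloud has no slope (r = 0.02 across genes), while the named genes, chosen on all libraries together, lie away from 0 on both axes.

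Likeness was also read between libraries of the same animal, where the animal and the run were removed from all 36 libraries. This likeness was added after the spread between libraries had been seen. Of 14626 genes, 31.7% had an r beyond 0.5 in size, against 7.84% across animals, and the middle 90% ran from -0.65 to 0.65. Values from the libraries of an animal share their source, so r is a description of these 36 libraries and 12 animals. An r of 0.8 or higher was found for 23 genes (0.157%) and an r of -0.8 or lower for 5 (0.0342%), with a highest r of 0.88. At each end 0 of these genes were also among those found across animals. For ENSMFAG00000031686, the highest across animals, the r between libraries had the other sign, at -0.39. For ENSMFAG00000032778, ENSMFAG00000001365 and ENSMFAG00000000877 it was 0.24, -0.36 and -0.49. Over 14610 genes this r correlated at 0.35 with the r across animals, at 0.79 with the r in letter B and at -0.20 with the r in the second run, all of which use libraries that enter here too. Without animal 4502 the counts were 293 and 310, and over the other animals left out they ran from 9 to 65 and from 1 to 25.

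The deviations of ENSMFAG00000042945 also moved with the component that holds most variance among the other genes. Component 1 of the remaining variation between libraries held 32.03% of the variance of 14626 other genes, and the transcript's deviations correlated with it at 0.65 in size over the 36 libraries. The highest and the lowest score on it came from the same animal, at 57.5 for library 5501A and -52.2 for 5501B. The next highest was 34.9, for library 1502A. The correlation without animal 5501 was not computed. Between libraries of an animal, the level correlated at r = 0.53 with the share of counts in the 100 highest genes, a set to which the transcript itself mostly belongs. It correlated at -0.04 with the log2 total count and at 0.09 with the number of genes detected. The part that composition plays in the spread between libraries was not tested. In bulk RNA a lower level can come from fewer cells of a type or from less RNA per cell, and these cannot be told apart.

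**Figure D5:**
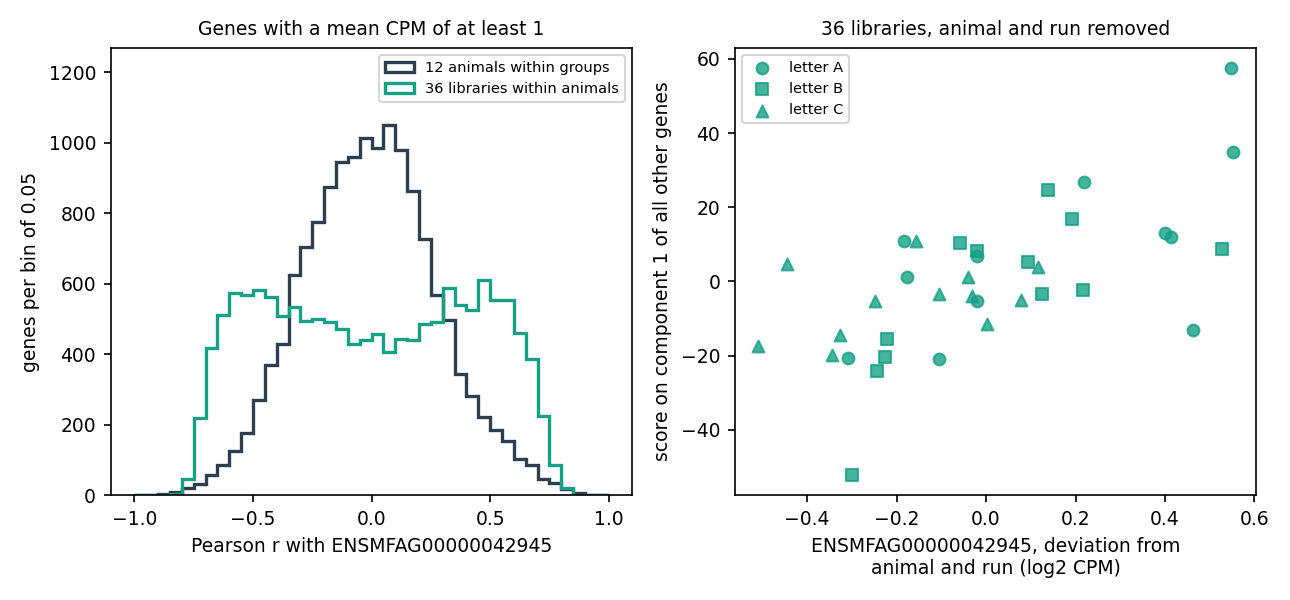
Left, number of genes per bin of Pearson r with ENSMFAG00000042945, across 12 animals within groups (dark) and across 36 libraries within animals (green). Right, score of each library on component 1 of all other genes against the transcript's deviation in log2 CPM, with animal and run removed (r = 0.65). The highest and the lowest score belong to libraries 5501A and 5501B of the same animal. The green histogram is wide and flat, with 31.7% of genes beyond 0.5 in size.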

How the data were processed

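Bulk RNA from the frontal cortex of 12 monkeys was sequenced in 36 libraries. The authors deposited a whole-number count, an exonic width and an RPKM per gene and library, per the file headers, and GSNAP aligned the reads per the submitters' processing notes, which give no version. The sources used here give no genome build, annotation, strand setting or rule for reads with several matches, and overlapping or similar genes may share counts. The RPKM values that the authors deposited rest on a total larger than the sum of the counts, of which the counts made up 52.9% to 63.0%.

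CPM is the count per 1000000 counts. Log2 CPM used TMM factors and a prior count of 2. Counts summed per animal were fitted by quasi-likelihood (edgeR 4.0.16, R 4.3.3, TMM, filterByExpr, all 12 animals), and libraries were fitted with animal as a block. Calls were made below 0.05 after Benjamini-Hochberg adjustment over all genes tested. Each SE is the size of the log2 fold change over the square root of F. DESeq2 1.42.0, limma 3.58.1, other size factors, no filter, single letters or runs, no library 5501B and each animal left out were alternatives. The limma voom fits and the likeness between libraries of an animal, and the SDs with an animal left out, were chosen after seeing the data. The fits were tested on simulated data with known answers. The simulated counts for edgeR held no likeness between libraries of an animal, so that part was not tested. The transcript and the lists were chosen with earlier results of these data known. The named genes are those with the 2 highest and 2 lowest r among genes that averaged 10 CPM or more. Marker lists were not applied, since identifiers have no names here. Pairs of libraries of an animal differed by 8.42 to 174 times counting noise by chi-square over its degrees of freedom. The animal is the replicate in the comparisons of groups on animal sums. The edgeR tests of run, of letter and of group by run were fitted on single libraries with animal as a block.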

Additional observations from a re-analysis of the deposited data

Results flagged for a closer look

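The level of ENSMFAG00000042945 in animal 4502, at 50 mg/kg, was 1034 CPM over its 3 libraries, while the nearest of the other 3 animals of its group stood at 1767 CPM. The gap made up 0.955 of the range of the group, above Dixon's 95% critical value of 0.829 for 4 samples. Of 26 groups of 4 values examined, 1 had such a value, and chance gives about 1 in 20 groups. Each of the 3 libraries of animal 4502 was the lowest of its letter at 50 mg/kg, at 1314 CPM for letter A, 1069 CPM for B and 682 CPM for C.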

How the results depend on the processing

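The 3 log2 fold changes between groups kept their sign, and moved by less than the SD between animals, in all 8 other settings and with each of the 12 animals left out. They ran from 1.06 to 1.23 for 200 mg/kg against anti-gD, from 0.34 to 0.58 for 50 mg/kg against anti-gD and from 0.57 to 0.79 for 200 against 50 mg/kg. The differences between runs and between letters kept their sign in 4 other settings and with each of 10 animals left out. Their adjusted p stayed above 0.05 in all of these, so they did not pass the test. The adjusted p of the test of group by run also stayed above 0.05, in 3 other settings and with each of 10 animals left out. The log2 difference between runs ranged from -0.23 without animal 4504 to -0.05 without animal 5503.

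The number of genes at an r of 0.8 or higher across animals was 48 in letter B alone, 53 in the second run alone and 11 at a mean CPM of at least 10, and 30 to 74 with 1 animal left out. At an r of -0.8 or lower it was 83, 64 and 5 in those settings, 6 in animal sums with no run term and 147 with every gene that has a count, and 20 to 44 with 1 animal left out. In general an r over fewer animals spreads more widely, though letter B alone kept all 12 animals. Without animals 1501, 1502, 4503, 4504, 5501, 5502 and 5504 the first count was 50, 62, 43, 47, 49, 74 and 64. The second count was over 1.5 times higher without any animal other than 1504 and 5503. Between libraries of an animal the counts were 48 at the high end with RLE size factors and 13 with a letter term. At the low end they were 9 with Spearman's rho, 3 with a letter term and 3 at a mean CPM of at least 10. With 1 animal left out they ran from 9 to 293 and from 1 to 310. Correlations with library properties turned sign in the second run alone, to 0.539 for total count and -0.263 for the share of the 100 highest genes. With 1 animal left out they ran from -0.513 to 0.186 and from -0.19 to 0.666. The cause was not tested for any of these changes.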
